A study of Mus musculus with 67 samples.

Results

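The comparison described here is between mouse intestinal organoids grown in the complete 8C medium and organoids grown in 8C medium from which valproic acid (VPA) had been left out, the 8C-V condition. Its members were chosen by their culture labels and comprised 13 of the 67 libraries of the series, 7 of the 8C condition and 6 of the 8C-V condition. Organoids were started from crypts of the proximal small intestine of mice aged 6 to 12 weeks, embedded in Matrigel and passaged every 7 days. The study compared culture media for their hold on gene expression that appears in the epithelium after injury, and removed the components of the 8C medium to ask what each of them adds. Both conditions of this comparison contained 2 µM EPZ6438, 0.2 µM LDN193189 (an inhibitor of BMP receptors), 0.1 µM GSK-3 Inhibitor XV (which activates Wnt signalling), 1 µM Pexmetinib (an inhibitor of p38 and Tie2), 50 ng/mL EGF, 20 ng/mL FGF2 and 10% R-Spondin 1 conditioned medium. The 8C condition also contained 500 µM VPA and the 8C-V condition contained 0 µM VPA, so that EZH2 was inhibited in both and the comparison asks what VPA adds on top of that. The study used C57BL/6 mice and mice with an Lgr5 reporter, and which of them gave these cultures is not given in the sources used here. The time that these cultures spent without VPA is not given either, although the study's text states one for the removal of VPA and EPZ6438 together.

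VPA inhibits histone deacetylases, the enzymes that take acetyl groups off histone tails, and raised acetylation is associated with open and transcribed chromatin. EPZ6438 inhibits EZH2, the catalytic subunit of the Polycomb complex PRC2, which methylates histone H3 and keeps developmental genes silent. In the crypt, Lgr5 stem cells at the base give rise to absorptive enterocytes and to secretory Paneth, goblet, enteroendocrine and tuft cells, and each of these cells is recognized by its own set of transcripts.

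The deposited values were in TPM, a read count divided by transcript length and scaled to a common sum in each library, and TPM does not keep the sequencing depth. Libraries that share a replicate number were alike in both conditions and showed the same pattern of Xist and Y-linked transcripts, so the number was used as a block. Nothing in the labels says whether the libraries of a condition came from separate mice or cultures, and p-values measure the spread between these libraries. The study's text gives fewer mice for its comparison of medium components than there are libraries in a condition here, so some libraries may share a mouse, and p-values over libraries would then be too small. 8C replicate 7 has no partner in the 8C-V condition and adds nothing to the blocked difference, and its mean correlation with the other 8C libraries was 0.937 against 0.951 to 0.967 for replicates 1 to 6. Replicates 1 to 3 and replicates 4 to 6 form sets whose response differed for some genes, and the values in each set are given for several of the named genes. The difference between the sets was not tested for any gene. All 8 epithelial markers listed were expressed, with a summed level of 11778 to 14952 TPM in the 8C-V condition and 9400.2 to 14317 TPM in the 8C condition.

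Leaving VPA out lowered far more genes than it raised. Of 12723 genes averaging 1 TPM or more, 700 differed at an adjusted p under 0.05 and by at least 2-fold on the log2(TPM + 1) scale (limma with the replicate number as a block, Benjamini-Hochberg adjustment), which is 5.5% of the genes tested. Of these, 534 genes were lower (4.2% of genes tested) and 166 were higher (1.3%) in the 8C-V condition. The median difference over all genes tested was -0.05. For 437 of the called genes, and for 6.72% of all genes tested, the 8C and 8C-V libraries were fully separated, and 656 of the called genes moved the same way in all 6 pairs of libraries with the same number. The genes that fell were weakly expressed even with VPA, with a median mean level of 9.67 TPM in the 8C condition against 22.4 TPM over all genes tested, and 133 of them were under 1 TPM on average once VPA was left out. Those 133 genes, and 30 of the genes that rose, which were under 1 TPM with VPA, passed the minimum of 1 TPM only through the condition in which they were high, and such genes had to differ. Of the genes described below, Gpm6a, Ifitm1, Fn1, Chst7, Epor, Peg3, Peg10, Basp1, Lrg1, Bmp4, Armcx2, Hoxb9 and Cyp4a10 were of the first kind. Cfhr2, Slc6a19, Slc6a20a, Rgs13 and Spib were of the second. For all of these the adjusted p and any lack of overlap are a description and no test. Adding 1 TPM before taking logs draws the differences of such genes toward 0. With quantile normalization, 396 genes were lower and 232 higher, so that 63.1% of called genes were lower against 76.3% without it.

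**Figure D1:**
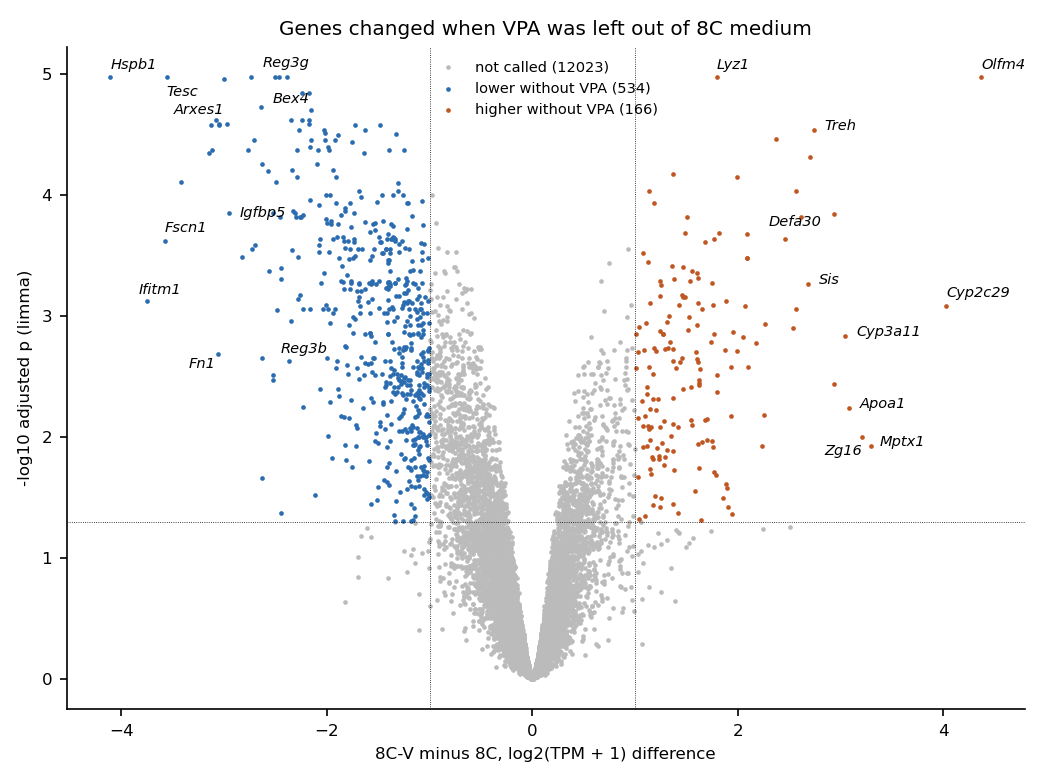
Difference of each tested gene, 8C-V minus 8C (horizontal axis, log2(TPM + 1)), against the -log10 of its adjusted p in limma (vertical axis), with called genes in colour, some of the genes described in the text named, and dotted lines at 2-fold and at an adjusted p of 0.05. The 534 genes that were lower, on the left, outnumber the 166 that were higher, and Olfm4 stands furthest to the right with a difference of 4.37.

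Among the 15 largest falls were genes of the cytoskeleton, the cell surface and stress protection. In the values that follow, the 3 levels are the lowest, the median and the highest library of a condition, and differences are on the log2(TPM + 1) scale with their standard error. Hspb1, a small heat shock protein that binds actin and unfolded proteins, stood at 0.190, 2.02 and 5.06 TPM in the 8C-V condition and at 21, 56.7 and 96.5 TPM in the 8C condition, a difference of -4.11 ± 0.17 (SE, adjusted p = 1.06e-05). Tesc, the calcium-binding protein tescalcin, stood at 1.6, 4.49 and 6.68 TPM without VPA and at 29.3, 70.3 and 102 TPM with it, a difference of -3.56 ± 0.14 (SE, adjusted p = 1.06e-05). Fscn1, which encodes the actin-bundling protein fascin, stood at 0.732, 0.951 and 1.61 TPM and 10.5, 25.1 and 56.5 TPM, respectively, and differed by -3.58 ± 0.33 (SE, adjusted p = 0.000238). For these 3 genes every library without VPA was below every library with VPA.

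The membrane glycoprotein gene Gpm6a, best known from neurons, stood at 0, 0.221 and 0.450 TPM in the 8C-V condition and 5.26, 10.4 and 21.6 TPM in the 8C condition, a difference of -3.41 ± 0.25 (SE, adjusted p = 7.75e-05). Myh10, the heavy chain of a non-muscle myosin, differed by -3.14 ± 0.21 (SE, adjusted p = 4.48e-05), from 10.00, 15.8 and 39.6 TPM with VPA to 0.551, 1.32 and 2.32 TPM without. Ifitm1, an interferon-induced transmembrane protein, was spread widely with VPA, at 1.85, 17.4 and 54.3 TPM, and was near the bottom of the scale without it, at 0, 0.0895 and 0.378 TPM, a difference of -3.75 ± 0.44 (SE, adjusted p = 0.000746). Libraries of the conditions did not overlap for any of these 3 genes. Gpm6a and Ifitm1 averaged under 1 TPM without VPA and passed the minimum only through the 8C libraries, so for them this is a description with no test. Fn1, which encodes fibronectin, stood at 0.0839, 0.112 and 0.130 TPM without VPA and 1.29, 5.05 and 31.1 TPM with VPA and differed by -3.06 ± 0.44 (SE, adjusted p = 0.00205). With replicates 1 to 3 alone the fall of Fn1 was -3.46 with an adjusted p of 0.0598. Fn1 also averaged under 1 TPM without VPA and passed the minimum only through the 8C libraries, so its values are a description.

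The remaining members of the 15 were Tmem132c (-3.12), the integral membrane protein gene Itm2a (-3.11), the sulfotransferase gene Chst7 (-3.07), Megf6 (-3.05), Arxes1 (-3.04), the erythropoietin receptor gene Epor (-3.0), the LIM domain gene Crip2 (-2.97) and the IGF binding protein gene Igfbp5 (-2.95). Their adjusted p-values lay between 1.09e-05 and 0.000140, and the libraries of the conditions did not overlap for any of them. Chst7 and Epor averaged under 1 TPM without VPA, so for them this is a description with no test. Epor, as an example, stood at 0.458, 0.784 and 2.19 TPM without VPA and at 12.3, 14.3 and 17.8 TPM with VPA. Other IGF binding proteins, which hold insulin-like growth factors outside the cell, were looked at after the values were seen. Of 6 tested, 4 were lower, among them Igfbp2 at 5.51, 31.9 and 55.8 TPM without VPA and 63.7, 98.5 and 316 TPM with it (-2.56 ± 0.27 (SE, adjusted p = 0.000423)), and Igfbp3 at 3.31, 5.22 and 10.6 TPM and 3.38, 28.8 and 48.3 TPM (-2.16 ± 0.26 (SE, adjusted p = 0.000867)). The libraries did not overlap for Igfbp2 and did for Igfbp3. The fall of Igfbp1 (-2.44 ± 0.69 (SE, adjusted p = 0.0420)) passed only narrowly and was lost when replicate 1, 2, 3, 4 or 6 was left out, with adjusted p-values of 0.066 to 0.103, and without the replicate block, where it was 0.196. It was also not called with a minimum mean of 5 TPM, with eBayes without trend and robust, or with replicates 4 to 6 alone (-0.76).

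Olfm4 rose the most. It encodes a glycoprotein secreted by stem cells at the crypt base, and it stood at 228, 496 and 624 TPM in the 8C-V condition against 6.57, 22.5 and 41.1 TPM in the 8C condition, a difference of 4.37 ± 0.19 (SE, adjusted p = 1.06e-05). The lowest library without VPA was above the highest library with VPA. The other large rises included cytochrome P450 genes, enterocyte and goblet cell genes and pentraxins. Cyp2c29, a cytochrome P450, stood at 22.6, 61.5 and 184 TPM without VPA and 0.897, 2.63 and 6.52 TPM with VPA (4.03 ± 0.48 (SE, adjusted p = 0.000820)), without overlap. Cyp3a11 (3.05 ± 0.41 (SE, adjusted p = 0.00147)) and Cyp3a25 (2.7 ± 0.18 (SE, adjusted p = 4.79e-05)) belong to another cytochrome P450 subfamily that oxidizes drugs and steroids and did not overlap either. Of 10 Cyp2c and Cyp3a genes tested, a family looked at after the values were seen, 6 were higher and 0 lower, with a median of 1.4. These genes lie in clusters of near copies that share reads, so the level of a single member is uncertain.

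Treh, the brush-border enzyme trehalase, stood at 14.8, 22.9 and 27.8 TPM in the 8C-V condition and 1.7, 2.3 and 4.18 TPM in the 8C condition, a difference of 2.74 ± 0.16 (SE, adjusted p = 2.87e-05) without overlap. Apoa1, an apolipoprotein made by enterocytes, stood at 174, 347 and 811 TPM and 11.1, 38.3 and 112 TPM, respectively, and differed by 3.08 ± 0.55 (SE, adjusted p = 0.00571), again without overlap. Sis, which encodes sucrase-isomaltase, was at 50.4, 86.4 and 134 TPM without VPA and 5.38, 10.4 and 218 TPM with VPA. The libraries of Sis overlapped, with 8C replicate 7, the one without a partner, the highest. Its difference within pairs was 2.69 ± 0.30 (SE, adjusted p = 0.000541), with an adjusted p of 0.0607 without the replicate block. The mucosal pentraxin genes Mptx1 and Mptx2, near copies of each other, varied widely between replicates. Mptx2 stood at 2.55, 72.4 and 137 TPM without VPA and 0, 2.31 and 16 TPM with VPA (2.94 ± 0.48 (SE, adjusted p = 0.00366)), with overlap, and was higher without VPA in every pair. Mptx1 rose by 3.3 ± 0.69 (SE, adjusted p = 0.0119) within pairs, with an adjusted p of 0.0812 without the block. Zg16, a goblet cell lectin, stood at 28.7, 73.8 and 335 TPM and 1.02, 6.41 and 30.8 TPM and rose by 3.21 ± 0.64 (SE, adjusted p = 0.00990), with overlap. With replicates 4 to 6 alone the rise was 4.46 for Apoa1 and 4.82 for Zg16, and with replicates 1 to 3 alone it was 1.71 and 1.6 and neither was called (adjusted p 0.0835 and 0.168).

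**Figure D2:**
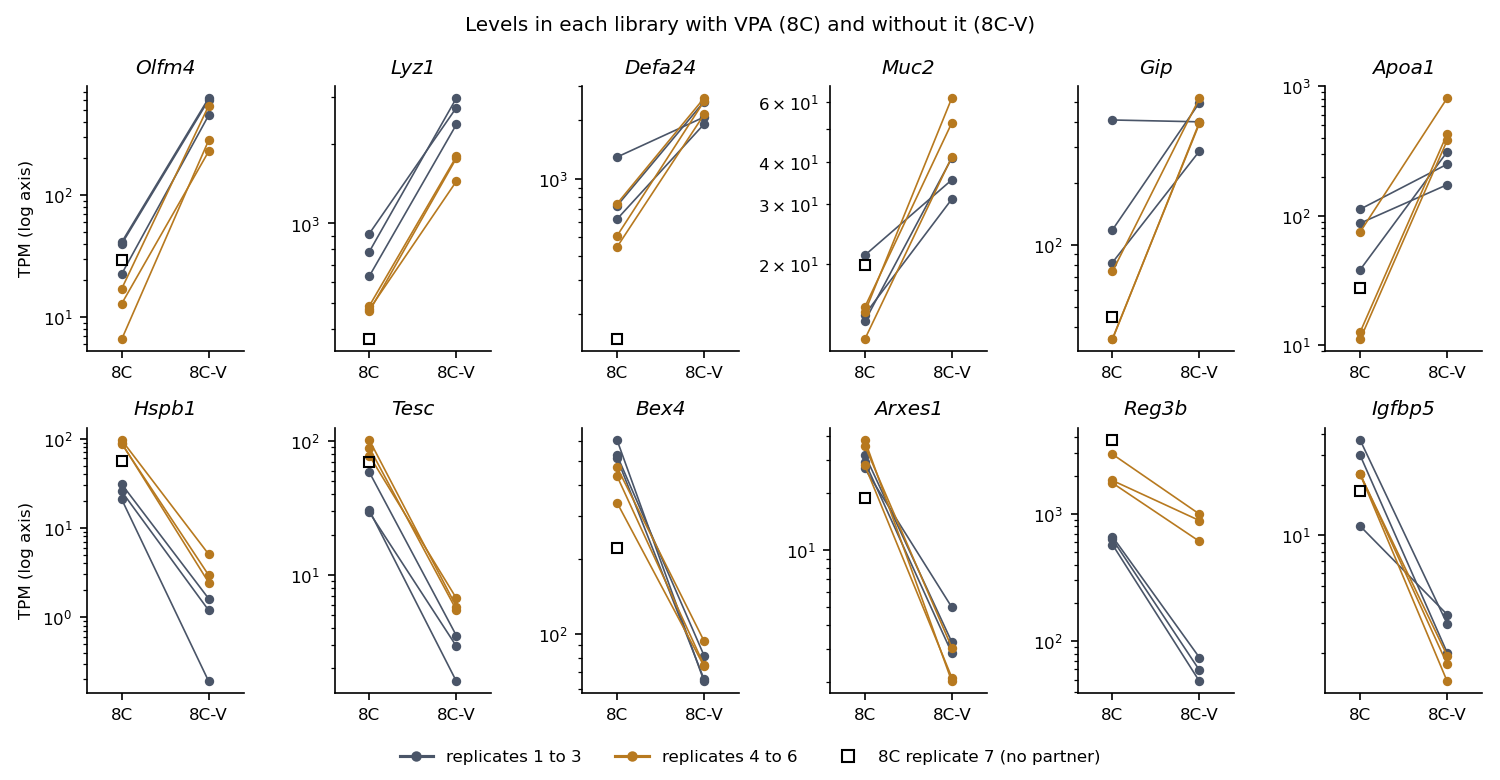
Level of 12 genes in each library (TPM, log axis), with lines joining libraries of the same replicate number in the 8C and 8C-V conditions and an open square for 8C replicate 7. Olfm4, Lyz1, Defa24, Muc2, Gip and Apoa1 tend upward when VPA is left out and Hspb1, Tesc, Bex4, Arxes1, Reg3b and Igfbp5 downward in all pairs, with the exception of Gip in replicate 2.

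Promoter sequences are shown for 3 genes that rose (Olfm4, Lyz1, Treh) and 3 that fell (Hspb1, Tesc, Bex4), to show CpG content from low to high among called genes. Each is the RefSeq sequence of the mouse build GRCm38.p6 from 250 bases before to 50 bases after the start listed there, 5′ to 3′ along the strand of the gene, with every CG dinucleotide in capitals. The promoters lie at chr14:80000052-80000351 (+ strand) for Olfm4, chr10:117292819-117293118 (- strand) for Lyz1, chr9:44672983-44673282 (+ strand) for Treh, chr5:135887669-135887968 (+ strand) for Hspb1, chr5:118027493-118027792 (+ strand) for Tesc and chrX:136138746-136139045 (+ strand) for Bex4.
Olfm4: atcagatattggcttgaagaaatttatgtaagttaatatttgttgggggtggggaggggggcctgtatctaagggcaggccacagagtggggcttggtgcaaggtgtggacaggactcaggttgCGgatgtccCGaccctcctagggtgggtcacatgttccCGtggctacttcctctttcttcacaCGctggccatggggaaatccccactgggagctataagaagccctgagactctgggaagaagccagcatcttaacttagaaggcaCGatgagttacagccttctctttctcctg
Lyz1: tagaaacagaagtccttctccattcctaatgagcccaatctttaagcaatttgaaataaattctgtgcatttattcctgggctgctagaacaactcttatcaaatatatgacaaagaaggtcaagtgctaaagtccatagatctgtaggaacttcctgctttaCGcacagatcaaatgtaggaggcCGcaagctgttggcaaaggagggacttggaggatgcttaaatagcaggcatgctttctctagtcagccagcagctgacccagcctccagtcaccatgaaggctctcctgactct
Treh: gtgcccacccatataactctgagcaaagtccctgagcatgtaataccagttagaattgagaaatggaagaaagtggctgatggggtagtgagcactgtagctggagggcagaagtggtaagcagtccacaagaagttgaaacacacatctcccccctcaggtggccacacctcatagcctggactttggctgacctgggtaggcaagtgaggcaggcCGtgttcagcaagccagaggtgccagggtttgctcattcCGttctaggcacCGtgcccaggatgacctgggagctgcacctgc
Hspb1: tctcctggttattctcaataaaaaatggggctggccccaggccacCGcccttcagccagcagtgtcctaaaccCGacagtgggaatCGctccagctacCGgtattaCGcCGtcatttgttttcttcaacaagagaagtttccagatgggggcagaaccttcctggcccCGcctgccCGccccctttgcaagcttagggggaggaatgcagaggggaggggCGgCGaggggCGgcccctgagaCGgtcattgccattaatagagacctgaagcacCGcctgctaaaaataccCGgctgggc
Tesc: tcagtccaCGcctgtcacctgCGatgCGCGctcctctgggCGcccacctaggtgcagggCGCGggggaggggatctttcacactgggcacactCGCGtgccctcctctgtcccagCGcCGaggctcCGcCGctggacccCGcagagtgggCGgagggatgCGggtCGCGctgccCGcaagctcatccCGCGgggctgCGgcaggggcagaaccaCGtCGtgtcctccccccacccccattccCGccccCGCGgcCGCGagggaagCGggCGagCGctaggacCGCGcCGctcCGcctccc
Bex4: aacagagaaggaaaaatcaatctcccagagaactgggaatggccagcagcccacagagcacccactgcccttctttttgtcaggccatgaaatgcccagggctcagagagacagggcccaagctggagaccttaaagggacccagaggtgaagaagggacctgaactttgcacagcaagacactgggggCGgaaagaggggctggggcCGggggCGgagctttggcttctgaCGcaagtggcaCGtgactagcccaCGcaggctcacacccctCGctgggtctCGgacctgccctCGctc
The promoters of Olfm4, Lyz1 and Treh hold 5, 2 and 3 CG dinucleotides, and those of Hspb1, Tesc and Bex4 hold 14, 36 and 9. Of the 166 genes that rose, 139 had a promoter in the RefSeq table, with a median of 3 CG dinucleotides, and 64.7% of them held fewer than 5. Of the genes that fell, 421 had a promoter, with a median of 19 and 6.89% below 5, and over the 10012 tested genes with a promoter these values were 21 and 8.09%. Only 78.8% of the genes that fell and 78.7% of all genes tested had an entry, under 80%, so the comparison of these sets is void as a check and the values describe the matched genes alone.

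The 4 markers that the study used to screen media did not move together. Reg3b, an antimicrobial lectin, was at 48.4, 341 and 996 TPM without VPA and 575, 1749 and 3805 TPM with VPA, a difference of -2.37 ± 0.35 (SE, adjusted p = 0.00235), and was lower in all 6 pairs although the libraries overlapped. Its fall was -3.36 in replicates 1 to 3 and -1.38 in replicates 4 to 6. Ly6a, known as Sca-1 and expressed in fetal and regenerating epithelium, was at 28.7, 139.8 and 269.7 TPM and 61, 403 and 853 TPM, lower in all 6 pairs by -0.999 ± 0.12 (SE, adjusted p = 0.000719), which stops just short of the 2-fold limit. Ly6a was called lower in 7 of 17 other settings, with a pseudocount of 0.1 (-1.01), with all organoid groups in the fit (-1.08), with replicates 4 to 6 alone (-1.11) and without replicate 2, 3, 5 or 6 (-1.02 to -1.07). Anxa1, a membrane-binding annexin, was lower by a smaller amount, -0.57 ± 0.14 (SE, adjusted p = 0.0212), also in all 6 pairs. Clu, the marker of revival stem cells, showed no common direction (-0.35 ± 0.78 (SE, adjusted p = 0.801)). It was lower without VPA in replicates 1, 2 and 3 (-2.79, -1.70 and -3.23) and higher in replicates 4, 5 and 6 (1.42, 1.94 and 2.25). It was called lower with replicates 1 to 3 alone (-2.57, adjusted p = 0.0163) and higher with replicates 4 to 6 alone (1.87, adjusted p = 2.57e-05).

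Paneth cell transcripts rose, with the largest median difference of the cell type lists. Of 16 Paneth cell markers tested, 13 were higher in the 8C-V condition and 0 lower, against 1.3% higher among all genes, and their median difference was 1.70. Lyz1, the lysozyme of Paneth cells, stood at 1443, 2077 and 2974 TPM without VPA and 365, 489 and 916 TPM with VPA, a difference of 1.8 ± 0.08 (SE, adjusted p = 1.06e-05). Defa24, the alpha-defensin with the highest level, stood at 1915, 2324 and 2609 TPM and 148, 618 and 1294 TPM, respectively (1.75 ± 0.19 (SE, adjusted p = 0.000537)). Neither gene overlapped between the conditions. The largest differences among the markers were those of Defa30 (2.46 ± 0.23 (SE, adjusted p = 0.000230)), Defa26 (2.09 ± 0.21 (SE, adjusted p = 0.000332)), Defa3 (1.99 ± 0.28 (SE, adjusted p = 0.00194)) and Defa21 (1.93 ± 0.35 (SE, adjusted p = 0.00671)), and of these Defa30 and Defa26 did not overlap. Alpha-defensin genes are near copies of each other and share reads, so the rise is better read over the family than for one member. The markers summed to 8198 to 10739 TPM in the 8C-V libraries and to 1284 to 5089 TPM in the 8C libraries, where replicate 7 was the lowest, and to 15930.5 to 20361 TPM in 7 libraries grown in ENR, the standard medium of EGF, noggin and R-Spondin 1. The number of markers called was 6 with replicates 1 to 3 alone and 14 with replicates 4 to 6 alone. In bulk RNA, more cells of a type and more RNA per cell cannot be told apart.

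In the other secretory lists fewer members passed the threshold, and the called members were higher. The summed levels overlapped between the conditions for all of them, and were higher without VPA in 5 of 6 pairs for goblet cell markers (4514 to 7689 TPM against 3148 to 5314 TPM), in 4 of 6 for enteroendocrine markers (1633 to 4018 TPM against 970.3 to 2961 TPM) and in 4 of 6 for tuft cell markers (45.5 to 99.7 TPM against 40.6 to 78.7 TPM). Of 11 goblet cell markers tested, 4 were higher and 0 lower (median 0.90). Muc2, the gel-forming mucin of goblet cells, stood at 31, 41.2 and 61.7 TPM without VPA and 11.9, 14.3 and 21.2 TPM with VPA (1.47 ± 0.17 (SE, adjusted p = 0.000691)), and Guca2a, which encodes guanylin, stood at 323, 447 and 598 TPM and 93, 135 and 265 TPM (1.77 ± 0.16 (SE, adjusted p = 0.000231)). Both genes were without overlap. Ccl9, a chemokine counted with goblet and M cell markers, rose within pairs (1.28 ± 0.24 (SE, adjusted p = 0.00730)) but had an adjusted p of 0.160 without the block. Atoh1, the transcription factor that starts the secretory program, rose from 2.38, 5.18 and 6.89 TPM to 8.44, 11.8 and 12.9 TPM (1.11 ± 0.14 (SE, adjusted p = 0.00115)), without overlap.

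Of 19 enteroendocrine markers, 4 were higher and 0 lower (median 0.50), and this group differed between the sets of replicates, with 0 called in replicates 1 to 3 alone and 11 in replicates 4 to 6 alone. Gip, the incretin hormone of K cells, stood at 287, 398 and 521 TPM in the 8C-V condition and 34.6, 74.2 and 407 TPM in the 8C condition (2.26 ± 0.41 (SE, adjusted p = 0.00659)). The overlap came from replicate 2, in which Gip changed by only -0.03. Sst (somatostatin) rose by 1.9 ± 0.53 (SE, adjusted p = 0.0380), Nts (neurotensin) by 1.79 ± 0.42 (SE, adjusted p = 0.0205) and Pyy (peptide YY) by 1.28 ± 0.29 (SE, adjusted p = 0.0171). The call of Sst was lost when replicate 1, 3, 4, 5 or 6 was left out (adjusted p 0.0522 to 0.118), that of Nts without replicate 1, 5 or 6 (0.0564 to 0.0611) and that of Pyy without replicate 5 or 6 (0.0575 and 0.0623). Leaving out replicates one at a time, 1 to 6 enteroendocrine markers were called, with 1 called without replicate 5 or replicate 6.

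Of 9 tuft cell markers, 5 were higher and 0 lower (median 1.24), again with 0 called in replicates 1 to 3 alone and 5 in replicates 4 to 6 alone. All were weakly expressed. Trpm5, the cation channel of chemosensory cells, stood at 2.91, 6.13 and 12.5 TPM without VPA and 1.03, 1.46 and 1.6 TPM with VPA (1.55 ± 0.25 (SE, adjusted p = 0.00386)), and Rgs13, a regulator of G protein signalling, at 3.11, 4.36 and 11.2 TPM and 0.609, 0.981 and 1.51 TPM (1.63 ± 0.26 (SE, adjusted p = 0.00340)). Libraries did not overlap for either gene, nor for Avil (1.37 ± 0.26 (SE, adjusted p = 0.00783)). Of 5 M cell markers tested, 3 were higher, namely Spib (1.69 ± 0.31 (SE, adjusted p = 0.00716)), Ccl9 and Tnfaip2 (1.11 ± 0.18 (SE, adjusted p = 0.00386)). Spib, a transcription factor of M cells, stood at 1.28, 4.36 and 7.77 TPM without VPA and 0.128, 0.476 and 0.599 TPM with VPA without overlap. Without the block only 1 of the 3 was called, Tnfaip2 having an adjusted p of 0.0830.

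Some enterocyte genes rose as well. Of 19 enterocyte markers tested, 9 were higher and 0 lower (median 0.93), or 6 without the replicate block. Apoa1, Treh and Sis, described above, were among them. Both called members among 4 enterocyte progenitor markers rose, Cfhr2 by 2.17 ± 0.30 (SE, adjusted p = 0.00165) and the retinol-binding protein gene Rbp7 by 1.6 ± 0.17 (SE, adjusted p = 0.000437), and neither overlapped. Among 20 solute carriers that take up nutrients, 4 rose and 1 fell (median 0.03). The amino acid transporter gene Slc6a19 stood at 4.75, 6.51 and 13.5 TPM in the 8C-V condition and 0.0855, 0.201 and 1.36 TPM in the 8C condition (2.57 ± 0.31 (SE, adjusted p = 0.000876)), and Slc6a20a at 3.34, 6.33 and 18.5 TPM and 0.448, 0.740 and 1.06 TPM (2.26 ± 0.29 (SE, adjusted p = 0.00116)). Neither transporter overlapped between the conditions, but both averaged under 1 TPM with VPA and passed the minimum through the 8C-V libraries alone. The glucose transporter gene Slc2a2 rose by 1.43 ± 0.17 (SE, adjusted p = 0.000810), with overlap. The sodium-proton exchanger gene Slc9a3 went the other way (-1.59 ± 0.35 (SE, adjusted p = 0.0158)), lower in 5 of 6 pairs, and its call was lost without replicate 4 or 6 (adjusted p 0.0516 and 0.0561). The enterocyte markers together reached 5048 to 9151 TPM without VPA and 3073 to 7010 TPM with VPA, higher without VPA in all 6 pairs.

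**Figure D3:**
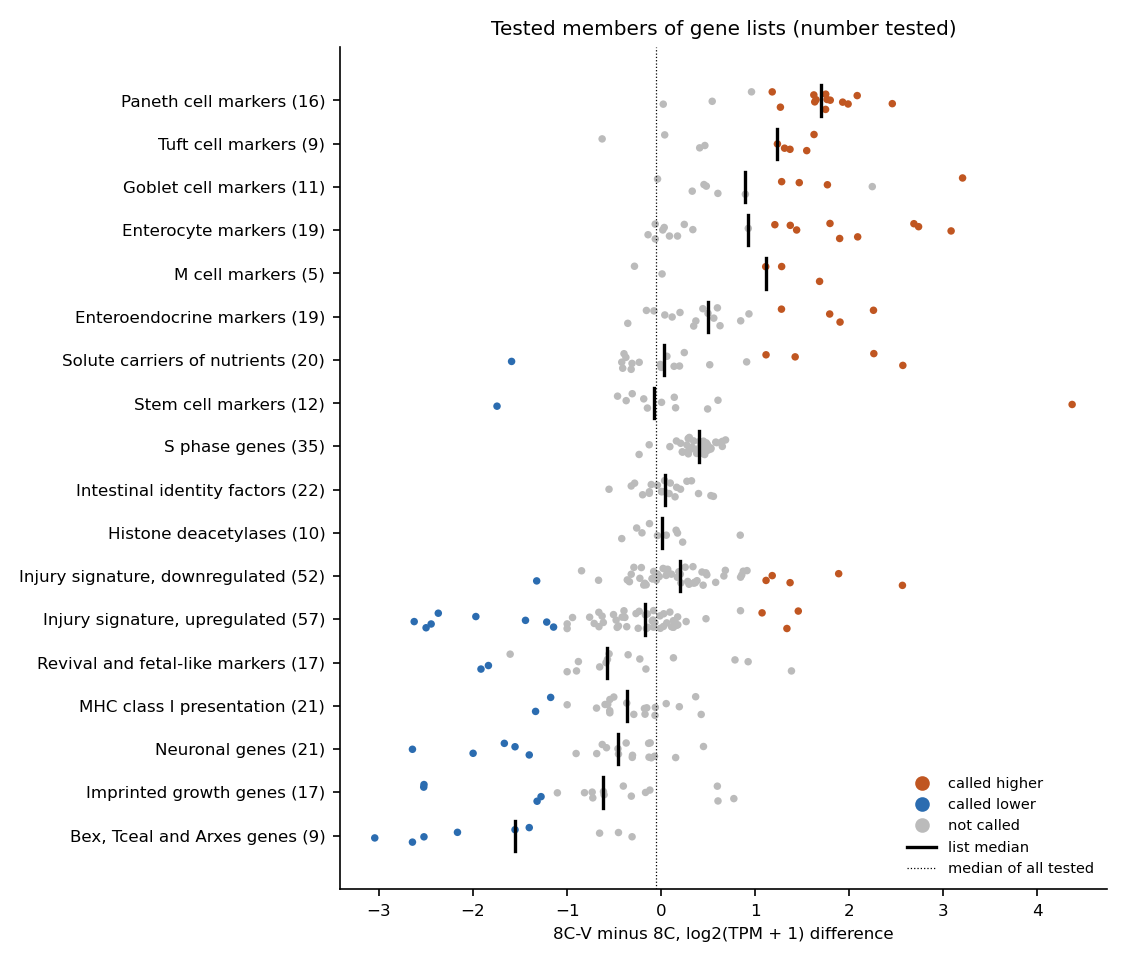
Differences (8C-V minus 8C, log2(TPM + 1)) of the tested members of 18 gene lists, one point per gene, with the median of each list as a bar and the median of all genes tested as a dotted line. Paneth cell markers lie furthest to the right, with a median of 1.70, and the Bex, Tceal and Arxes genes furthest to the left, with a median of -1.55.

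The stem cell list did not shift as a whole. Of 12 stem cell markers, 1 rose (Olfm4) and 1 fell (Tnfrsf19), with a median of -0.07. Tnfrsf19, also called Troy, a receptor that is a target of Wnt signalling in stem cells, stood at 5.9, 8.38 and 12 TPM without VPA and 17.9, 28 and 47.8 TPM with VPA (-1.74 ± 0.23 (SE, adjusted p = 0.00139)), without overlap. Lgr5, the receptor for R-spondins that defines crypt stem cells, stood at 48.1, 57.1 and 64.8 TPM and 42.4, 50.6 and 112 TPM and differed by -0.18 ± 0.19 (SE, adjusted p = 0.548), lower in 3 of 6 pairs. Of 18 Wnt targets, 3 were lower, Tnfrsf19 and 2 that passed the 2-fold limit narrowly, Wif1 (-1.03) and Nkd1 (-1.01). Both fell short of 2-fold without the replicate block (-0.91 and -0.89), with quantile normalization (-0.79 and -0.82), with 75th percentile scaling, with all organoid groups in the fit and with replicates 4 to 6 alone (-0.65 and -0.56). Without replicate 3 those 2 stood at -0.83 for Wif1 and -0.84 for Nkd1, and Nkd1 also fell short of 2-fold without replicate 1 (-0.94) or 2 (-0.97).

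Most proliferation genes had small positive differences, of which none was called, as a description with no test of the lists. Of 35 S phase genes, 0 passed the 2-fold limit in limma, 24 had an unadjusted p under 0.05 and 16 were higher at an adjusted p under 0.05, with a median of 0.41 and 33 of 35 positive. Over all genes tested, 32.2% had an unadjusted p under 0.05 and 5.34% were higher at an adjusted p under 0.05 at any fold. Of 32 G2/M genes, 0 were called, 20 had an unadjusted p under 0.05, 8 were higher at an adjusted p under 0.05 and all 32 were positive (median 0.26). Pcna, the sliding clamp of DNA replication, differed by 0.21 ± 0.07 (SE, adjusted p = 0.0681) and Cdc20, an activator of the anaphase-promoting complex, by 0.28 ± 0.07 (SE, adjusted p = 0.0254). The S phase genes summed to 3460 to 4094 TPM in the 8C-V condition and 1217 to 3392 TPM in the 8C condition, where replicate 7 was the lowest, and to 2053 to 3392 TPM in 8C replicates 1 to 6. None of 7 CDK inhibitors was called (2 at an unadjusted p under 0.05), Cdkn1a among them (-0.39 ± 0.19 (SE, adjusted p = 0.195)).

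Among the gene lists, the lowest median was that of the Bex, Tceal and Arxes genes, a group of small X-linked genes known mainly from neurons and fat cells. Of 9 tested, 6 were lower, 0 were higher and the median was -1.55, and these 6 were called in each of the other settings tried, apart from Bex2 with replicates 4 to 6 alone (-0.93). Bex4 stood at 64.3, 74.3 and 93.5 TPM in the 8C-V condition against 223, 471 and 607 TPM in the 8C condition (-2.64 ± 0.14 (SE, adjusted p = 1.87e-05)). Arxes1 was at 2.02, 2.95 and 4.98 TPM and 18.8, 29.4 and 38.2 TPM (-3.04 ± 0.18 (SE, adjusted p = 2.61e-05)), Arxes2, its near copy that shares reads with it, at 8.72, 15.5 and 20.0 TPM and 43.4, 64.7 and 74.3 TPM (-2.17 ± 0.17 (SE, adjusted p = 0.000109)), and Tceal8 at 1.21, 11.1 and 22.9 TPM and 33.4, 50.3 and 80.7 TPM (-2.52 ± 0.40 (SE, adjusted p = 0.00309)). None of these 4 genes overlapped between the conditions. Bex1 (-1.55 ± 0.14 (SE, adjusted p = 0.000173)) and Bex2 (-1.4 ± 0.19 (SE, adjusted p = 0.00141)) fell as well, with a slight overlap for Bex2.

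The 6 that fell lie next to each other on the X chromosome, in a stretch that also holds 4 of the 6 tested Armcx genes, which encode armadillo-repeat proteins. The 3 tested Bex, Tceal and Arxes genes that were not called are not in the stretch. Of the 6 Armcx genes, 3 were lower and 0 higher (median -0.91), and Armcx1 (-0.76) and Armcx4 (-0.79), which lie outside the stretch, were not called. The stretch from Armcx6 to Bex1, chrX:134748461-136215513 in GRCm38, spans 1467 kb and was chosen after the values were seen, with a gene called lower at each end. It holds 14 tested genes, of which 11 were lower and 0 higher, with a median of -1.48. Armcx2 stood at 0.541, 0.781 and 1.66 TPM without VPA and 3.84, 6.34 and 15 TPM with VPA (-2.3 ± 0.19 (SE, adjusted p = 0.000151)), and Armcx6 at 1.28, 2.16 and 2.52 TPM and 5.33, 9.43 and 12 TPM (-1.76 ± 0.16 (SE, adjusted p = 0.000184)), both without overlap. Armcx3 fell by less (-1.03 ± 0.19 (SE, adjusted p = 0.00667)) and was under the 2-fold limit when replicate 4, 5 or 6 was left out (-0.92 to -0.98). The 3 genes of the stretch that were not called were Tcp11x2 (-0.82), Armcx5 (-0.04) and Gprasp1 (-0.15). Over the whole X chromosome, 49 of 388 genes tested were lower and 3 higher, so that 12.6% were lower against 3.93% of genes elsewhere. Xist and Y-linked transcripts were present or absent alike in libraries with the same number, and replicate 1 held both kinds in both conditions, with Xist at 19.2 TPM without VPA and 11 TPM with VPA. In that pair Eif2s3y, a Y-linked gene, stood at 25.3 TPM without VPA and 63.4 TPM with it (-1.29), so the mixture was not the same in the 2 conditions. Over all pairs the Y-linked gene Eif2s3y differed by -0.19 ± 0.20 (SE, adjusted p = 0.546). The part of that mixture in the X-linked values was not tested.

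Some imprinted and neuronal genes were also lower, while most members of both lists were not called. Of 17 imprinted growth genes, 4 were lower and 0 higher (median -0.61). Peg3, a zinc finger protein expressed from the paternal allele, stood at 0.0735, 0.207 and 0.435 TPM without VPA and 0.983, 4.03 and 19.1 TPM with VPA (-2.52 ± 0.40 (SE, adjusted p = 0.00338)), and Peg12 at 0.345, 1.21 and 1.88 TPM and 1.34, 9.36 and 19.1 TPM (-2.52 ± 0.21 (SE, adjusted p = 0.000140)), with overlap for Peg12 only. Peg3 passed the minimum of 1 TPM only through the 8C libraries, so its fall is a description with no test. Sgce (-1.32 ± 0.17 (SE, adjusted p = 0.00101)) and Peg10 (-1.28 ± 0.27 (SE, adjusted p = 0.0137)), neighbours on chromosome 6 that share a promoter region, both fell. Peg10 was not called with replicates 1 to 3 alone or 4 to 6 alone. Of 21 neuronal genes, 5 were lower and 0 higher (median -0.45), 3 of them Bex genes. The others were Uchl1, a ubiquitin hydrolase, at 0.480, 1.08 and 1.77 TPM without VPA and 2.48, 7.68 and 11 TPM with VPA (-2.0 ± 0.29 (SE, adjusted p = 0.00221)), and the neurofilament gene Nefl at 2.83, 3.53 and 5.12 TPM and 7.3, 11.8 and 20.3 TPM (-1.67 ± 0.13 (SE, adjusted p = 0.000104)), both without overlap.

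Markers of cells other than epithelium were low in all libraries. Of 9 markers of nerve and glia, 2 were expressed enough to be tested, both differed at an adjusted p under 0.05 with less than 2-fold lower levels, and the 9 summed to 6.07 to 11.6 TPM without VPA and 9.81 to 30.9 TPM with VPA, with 2 of them at 0 throughout. Ret, a receptor that enteric neurons and some epithelial cells express, was the highest of them (-0.97 ± 0.22 (SE, adjusted p = 0.0172)). It differed by -0.25, -0.44 and -0.50 in replicates 1, 2 and 3 and by -1.70, -1.45 and -1.47 in replicates 4, 5 and 6, and it was called lower in 7 of 17 other settings, among them without the block (-1.14) and without replicate 1, 2 or 3 (-1.11, -1.07 and -1.06). Of 16 mesenchymal and endothelial markers, 3 were tested and 0 were called (0 at an unadjusted p under 0.05), with sums of 19.3 to 29.6 TPM and 25.9 to 52 TPM, and 2 at 0 throughout, and Vim, the intermediate filament vimentin, was the highest (-0.45 ± 0.21 (SE, adjusted p = 0.171)). Of 15 immune markers, 2 were tested and 0 called (1 at an unadjusted p under 0.05), with sums of 4.99 to 10.3 TPM and 3.16 to 18 TPM and 4 at 0 throughout, and the macrophage marker Cd68 was the highest (-0.27 ± 0.28 (SE, adjusted p = 0.558)). The sums for nerve and glia and for mesenchyme were lower without VPA in all 6 pairs, alongside Fn1, Nefl, Uchl1 and Gpm6a, and their part in the fall of those genes was not tested.

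Genes of the injury response moved in both directions. The study's signature of genes raised after injury held 57 tested genes, of which 8 were lower and 3 higher (median -0.17), or 9 and 0 without the block. The study drew this signature from published mouse models of intestinal injury, not from these libraries. Reg3g, the neighbour and close relative of Reg3b, stood at 59.8, 184 and 409 TPM in the 8C-V condition and 395, 1372 and 2870.4 TPM in the 8C condition (-2.5 ± 0.11 (SE, adjusted p = 1.06e-05)), lower in all pairs with overlapping libraries. H2-Ab1, a chain of MHC class II, stood at 21.4, 23.5 and 26.9 TPM and 70.7, 159 and 239 TPM (-2.45 ± 0.26 (SE, adjusted p = 0.000492)), without overlap, and was the 1 called of 5 class II genes tested. Lrg1, a secreted glycoprotein, fell by -2.63 ± 0.63 (SE, adjusted p = 0.0216), but by -1.02, -0.64 and -0.76 in replicates 1, 2 and 3 and by -4.32, -4.25 and -4.76 in replicates 4, 5 and 6. Its call was lost without replicate 4, 5 or 6 (adjusted p 0.0663 to 0.0695).

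Among the Reg lectins, 2 of 6 fell (Reg3b and Reg3g) and 3 rose. Reg4, which marks secretory cells, stood at 919.6, 977 and 1109.6 TPM without VPA and 199, 580.0 and 914 TPM with VPA (1.38 ± 0.32 (SE, adjusted p = 0.0186)), without overlap, although its call was lost without replicate 4, 5 or 6 (adjusted p 0.0555 to 0.0638). The rise of Reg4 was 0.47 in replicates 1 to 3 and 2.29 in replicates 4 to 6. Reg3a (1.29 ± 0.28 (SE, adjusted p = 0.0146)) and Reg1 (1.21 ± 0.25 (SE, adjusted p = 0.0122)) rose within pairs, and without the block their adjusted p-values were 0.101 and 0.0675. Of 52 genes of the signature lowered after injury, 5 were higher and 1 lower (median 0.20). Aoc1, a diamine oxidase of enterocytes, stood at 20.9, 61.2 and 148 TPM and 3.32, 8.94 and 22.7 TPM (2.57 ± 0.19 (SE, adjusted p = 9.17e-05)), and the chemokine gene Ccl6 at 10.2, 11.2 and 15.3 TPM and 0.561, 1.53 and 5.95 TPM (1.89 ± 0.22 (SE, adjusted p = 0.000743)), with overlap for Aoc1 only. The peptidase gene Mme rose (1.37 ± 0.37 (SE, adjusted p = 0.0360)), with its call lost without replicate 4, 5 or 6 (adjusted p 0.104 to 0.112) and values of 0.41 in replicates 1 to 3 and 2.33 in replicates 4 to 6, and the G protein subunit gene Gng11 fell (-1.32 ± 0.08 (SE, adjusted p = 3.10e-05)) in all 6 pairs. Of 17 revival and fetal-like markers, 2 were lower and 0 higher (median -0.57), the growth-cone protein gene Basp1 (-1.92 ± 0.23 (SE, adjusted p = 0.000876)) and the gap junction gene Gja1 (-1.84 ± 0.34 (SE, adjusted p = 0.00684)).

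Most MHC class I genes were not called. Of 21 tested, 2 were lower by 2-fold and the median was -0.37, with 17 negative and 4 positive. At any fold, 9 were lower and 1 higher at an adjusted p under 0.05, where 12.6% of all genes tested were lower and 5.34% higher. Psmb8, a subunit of the immunoproteasome, stood at 2.86, 6.31 and 8.87 TPM without VPA and 12.7, 14.7 and 18.8 TPM with VPA (-1.33 ± 0.23 (SE, adjusted p = 0.00437)), and H2-M3 at 12.1, 15.5 and 24.7 TPM and 26.6, 30.4 and 56 TPM (-1.17 ± 0.10 (SE, adjusted p = 0.000149)), both without overlap. Psmb8 was also the 1 called of 29 interferon-stimulated genes, where 4.2% of all genes tested were lower. Of 13 chemokines and alarmins, 3 were higher and 0 lower, Ccl6, Ccl9 and Ccl25, the last a chemokine of the small intestine (1.13 ± 0.09 (SE, adjusted p = 9.17e-05)).

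In signalling and adhesion, single genes changed rather than whole lists, where 4.2% of all genes tested were lower and 1.3% higher. Among 19 BMP pathway genes, the ligand gene Bmp4 stood at 0, 0.185 and 0.405 TPM without VPA and 3.14, 4.37 and 7.75 TPM with VPA (-2.23 ± 0.19 (SE, adjusted p = 0.000145)), and Bmp3, a related ligand that opposes BMP signalling, at 36.6, 43.7 and 47.6 TPM and 11.9, 13.2 and 30.6 TPM (1.23 ± 0.21 (SE, adjusted p = 0.00485)). Both were without overlap and in opposite directions, but Bmp4 passed the minimum of 1 TPM only through the 8C libraries, so its fall is a description with no test. Id3, a target of BMP signalling, fell by only just 2-fold (-1.02 ± 0.12 (SE, adjusted p = 0.000755)) and was under that limit without replicate 1 (-0.98), 2 (-0.98) or 4 (-0.96), with quantile (-0.92) or 75th percentile scaling (-0.99), with all organoid groups in the fit (-0.97) and with replicates 4 to 6 alone (-0.98). Of 17 Notch pathway genes, Atoh1 rose and the receptor gene Notch3 fell (-1.76 ± 0.40 (SE, adjusted p = 0.0176)), the latter with its call lost without replicate 4, 5 or 6 (adjusted p 0.0560 to 0.0616) and values of -0.78 in replicates 1 to 3 and -2.74 in replicates 4 to 6. Of 23 YAP targets and Hippo genes, 1 was lower, the annexin gene Anxa6, at 17.4, 21 and 25.4 TPM and 71.9, 91.7 and 122 TPM (-2.02 ± 0.12 (SE, adjusted p = 3.07e-05)) without overlap, and the list's median was -0.01. Of 29 integrins, laminins and annexins, 2 were lower, Anxa6 and the laminin chain gene Lamb1 (-1.12 ± 0.13 (SE, adjusted p = 0.000719)), the latter with an adjusted p of 0.0942 without the block and under 2-fold with quantile normalization (-0.88), all organoid groups in the fit (-0.97) or replicates 4 to 6 alone (-0.94). Of 11 Hox genes tested, 2 were lower and 0 higher (median -0.34), Hoxb4 (-1.08 ± 0.16 (SE, adjusted p = 0.00266)) and Hoxb9 (-1.01 ± 0.26 (SE, adjusted p = 0.0297)). Hoxb9 lost its call without replicate 2, 4, 5 or 6 (adjusted p 0.0524 to 0.0964), and Hoxb4 stood at -0.97 without replicate 5.

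Metabolic lists held few called genes, mostly single genes in short lists, where 4.2% of all genes tested were lower and 1.3% higher. In glycolysis and lactate handling, 3 of 21 were lower and 1 higher (median -0.30). Ldhb, a lactate dehydrogenase chain, stood at 33.3, 52.5 and 59.2 TPM in the 8C-V condition and 44.6, 160.3 and 229 TPM in the 8C condition (-1.76 ± 0.11 (SE, adjusted p = 3.65e-05)), with an overlap that comes from 8C replicate 7 at 44.6 TPM, and hexokinase Hk1 stood at 22.1, 31 and 33.6 TPM and 48.1, 85.8 and 124 TPM (-1.34 ± 0.19 (SE, adjusted p = 0.00187)), without overlap. The lactate carrier gene Slc16a3 fell (-1.18 ± 0.29 (SE, adjusted p = 0.0256)), with its call lost without replicate 4, 5 or 6 (adjusted p 0.0749 to 0.0757), and stood at -0.36 in replicates 1 to 3 and -2.0 in replicates 4 to 6. Of 16 fatty acid synthesis genes, 1 was lower, the acetyl-CoA carboxylase gene Acacb (-1.99 ± 0.40 (SE, adjusted p = 0.00986)), with -0.94 in replicates 1 to 3 and -3.03 in replicates 4 to 6. Of 38 genes of fatty acid oxidation and PPAR targets, 2 were lower and 1 higher, the thioesterase gene Acot1 (-1.35 ± 0.12 (SE, adjusted p = 0.000179)), Cyp4a10 (-1.57 ± 0.43 (SE, adjusted p = 0.0355)) and the fatty acid receptor gene Cd36 (1.16 ± 0.27 (SE, adjusted p = 0.0201)). Cyp4a10 lost its call without replicate 1, 3 or 4 (adjusted p 0.0540 to 0.0964) and Cd36 without replicate 4, 5 or 6 (0.0536 to 0.0720).

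Of 12 urea cycle genes, only Ass1, argininosuccinate synthase, was called (-1.07 ± 0.25 (SE, adjusted p = 0.0207)), and not without replicate 4, 5 or 6 (adjusted p 0.0642 to 0.0672). It stood at -0.35 in replicates 1 to 3 and -1.78 in replicates 4 to 6. Of 30 glutathione and NRF2 target genes, the glutathione transferase gene Gsta1 rose (1.4 ± 0.21 (SE, adjusted p = 0.00270)) and heme oxygenase Hmox1 fell (-1.14 ± 0.14 (SE, adjusted p = 0.000873)), both in all 6 pairs and with overlap. Gsta1 was not called with replicates 1 to 3 alone or 4 to 6 alone, nor Hmox1 with replicates 1 to 3 alone (-0.83).

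With all pairs, no gene of the machinery that VPA and EPZ6438 act on was called. Of 10 histone deacetylases tested, 0 were called in limma, 4 had an unadjusted p under 0.05, and at an adjusted p under 0.05 at any fold 2 were lower and 1 higher. Hdac1 stood at 109.5, 138 and 169.6 TPM without VPA and 148, 178 and 222 TPM with VPA, a difference of -0.42 ± 0.08 (SE, adjusted p = 0.00905), lower in all 6 pairs, and Hdac3 differed by -0.26 ± 0.07 (SE, adjusted p = 0.0387). Hdac7 was higher without VPA, at 12.7, 17.7 and 26.9 TPM against 7.63, 10.0 and 12.3 TPM, a difference of 0.84 ± 0.19 (SE, adjusted p = 0.0176), and it was called higher with replicates 4 to 6 alone (1.23). None of 25 corepressor subunits (6 at an unadjusted p under 0.05), 12 PRC2 subunits (3) or 14 histone acetyltransferases and readers (3) was called. Rbbp7, a histone-binding subunit of both deacetylase complexes and PRC2, differed by 0.20 ± 0.07 (SE, adjusted p = 0.0655) and the bromodomain gene Brd2 by 0.27 ± 0.10 (SE, adjusted p = 0.0982). Of 15 genes known to respond to deacetylase inhibitors, 1 was lower, the heat shock gene Hspa2 (-1.58 ± 0.20 (SE, adjusted p = 0.000943)), which stood at 6.49, 8.38 and 12.4 TPM without VPA and 22.1, 26.9 and 35.8 TPM with it, without overlap, and the list's median was -0.39.

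None of 21 p53 targets (3 at an unadjusted p under 0.05), 25 genes of ERK output and AP-1 (5), 10 EGF family genes (3), 24 cholesterol synthesis genes (2), 22 intestinal identity factors (3), 11 keratins and cornified envelope genes (8), 15 BCL2 family genes (5), 7 transit amplifying markers (3) or 8 epithelial markers (3) was called. The highest expressed members of lists among these were Perp (-0.23 ± 0.08 (SE, adjusted p = 0.0711)), Fos (0.21 ± 0.27 (SE, adjusted p = 0.637)), Areg (-0.88 ± 0.63 (SE, adjusted p = 0.383)), Hnf4a (0.21 ± 0.17 (SE, adjusted p = 0.450)), Krt8 (0.30 ± 0.10 (SE, adjusted p = 0.0701)), Bax (-0.50 ± 0.15 (SE, adjusted p = 0.0522)) and Tuba1b (0.22 ± 0.11 (SE, adjusted p = 0.184)). The growth factor gene Areg went in opposite directions in the sets of replicates. It was higher without VPA in replicates 1, 2 and 3 (1.08, 0.39 and 1.36) and lower in replicates 4, 5 and 6 (-3.04, -2.60 and -2.47), and it was called lower with replicates 4 to 6 alone (-2.70).

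The same omission of VPA could be read without EPZ6438, in 7 libraries that lacked both compounds (8C-VE) and 7 that lacked EPZ6438 alone (8C-E). These 14 libraries are not used in the comparison above. Of 12238 genes tested there, 565 were called (4.62%), with 408 lower (3.33%) and 157 higher (1.28%). Genes lower in both backgrounds numbered 246, which is 46.1% of those lower with EPZ6438 and 60.3% of those lower without it. Genes higher in both numbered 104, or 62.7% and 66.2%, respectively. Of the 534 genes lower with EPZ6438, 170 had a mean under 1 TPM over the 8C-VE and 8C-E libraries and were not tested there. The Paneth cell markers had similar counts, with 13 of 16 higher with EPZ6438 and 12 of 17 higher without it, at medians of 1.70 and 1.46. Counts of other lists differed, such as enteroendocrine markers with 4 of 19 higher with EPZ6438 and 9 of 18 without it. No member of either list had a called interaction, described below, and the counts were not compared by a test.

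Whether the effect of VPA omission depended on EPZ6438 was tested as an interaction, the difference with EPZ6438 minus the difference without it. Of 12556 genes, 127 passed (1.01%), 85 negative and 42 positive, and 1092 had an unadjusted p under 0.05. Of the 85 negative ones, 38 were genes with a mean under 1 TPM in each of the 3 media other than 8C, which passed the minimum through the 8C libraries alone. Adding 1 TPM before taking logs holds the difference without EPZ6438 near 0 for such genes, so their sign was set in advance and their values are a description, with no test. Some further negative ones had a mean under 1 TPM over the 8C-VE and 8C-E libraries together, which limits their difference without EPZ6438 as well. Olfm4 had the largest positive value, 3.29 ± 0.38 (SE, adjusted p = 1.82e-05). Its mean was 1378 TPM with neither compound, 824 TPM with VPA alone, 455 TPM with EPZ6438 alone, 24.2 TPM with both and 2500.5 TPM in ENR medium. Olfm4 was thus far lower with both compounds than with either one.

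Bmp4, the syntrophin gene Sntb1, Tmem47, Ifitm1, Fn1, Dmrt1, Armcx2 and Basp1 were of that kind, near the bottom of the scale with neither compound or one of them and higher where both were present. The mean of Sntb1 was 0.170 TPM with neither compound, 0.296 TPM with VPA, 0.128 TPM with EPZ6438 and 5.78 TPM with both. For Fn1 the means were 0.0607, 0.377, 0.110 and 10.5 TPM in the same order. Dmrt1, a transcription factor of the gonad, was listed at 0 in every library of the other 3 media and in ENR medium, and stood at 0.388, 5.29 and 7.8 TPM with both compounds, with 8C replicate 7 the lowest.

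Other genes answered to either compound alone, so that on the log2 scale leaving out VPA made less difference once EPZ6438 was present. Rbpms, an RNA-binding protein, had means of 0.832 TPM with neither compound, 16 TPM with VPA, 16.4 TPM with EPZ6438 and 27.2 TPM with both, and an interaction of 2.55 ± 0.26 (SE, adjusted p = 2.85e-06). The kinase gene Stk26 had means of 1.63, 13, 13.1 and 20.0 TPM in that order, and an interaction of 1.89 ± 0.24 (SE, adjusted p = 5.08e-05). Bex4 rose through 1.71, 51.8 and 75.6 TPM to 445 TPM, with an interaction of 2.0 ± 0.41 (SE, adjusted p = 0.00994) that was not called without replicate 1 or 5 (adjusted p 0.0552 and 0.0633). In TPM the drop of Bex4 was larger with EPZ6438, from 445 to 75.6 TPM, than without it, from 51.8 to 1.71 TPM.

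The water channel gene Aqp5 and Hspb1 followed other patterns. The difference of Aqp5 was 1.09 with EPZ6438 and -1.50 without it, with means of 1.19, 12.2, 28.3 and 10.2 TPM in the same order of media, and its interaction was 2.59 ± 0.58 (SE, adjusted p = 0.0208), lost without replicate 1, 2, 3 or 6 (adjusted p 0.0593 to 0.126), without the block (0.511) and with a pseudocount of 0.1 (0.117). The difference of Hspb1 was larger with EPZ6438 (-4.11) than without it (-2.58). Its means were 0.240, 8.79, 2.24 and 58.3 TPM, and its interaction (-1.59 ± 0.38 (SE, adjusted p = 0.0330)) did not hold without the block (0.822), with a pseudocount of 0.1 (0.958) or without any replicate other than 4 (adjusted p 0.0593 to 0.152).

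**Figure D4:**
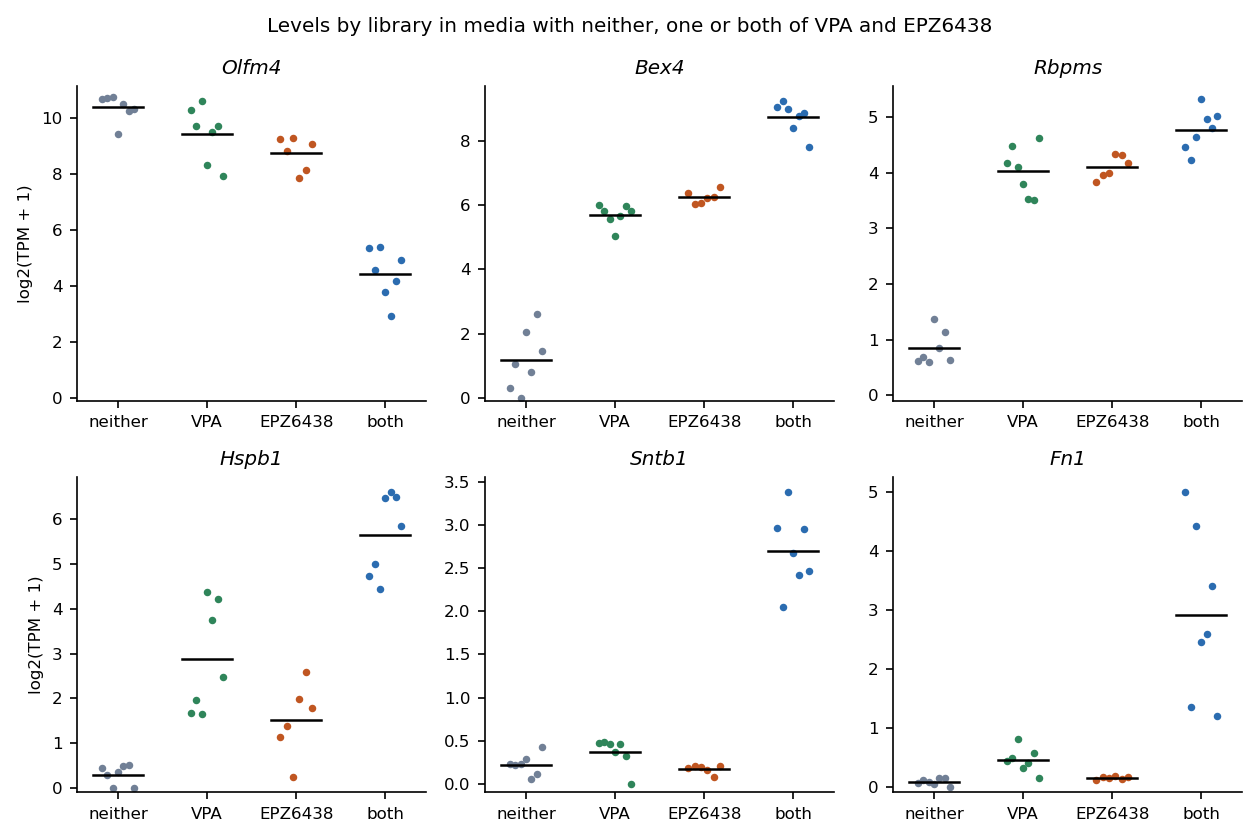
Level of 6 genes (log2(TPM + 1)) in each library of media with neither compound (8C-VE), VPA alone (8C-E), EPZ6438 alone (8C-V) or both (8C), with a bar at the mean. Olfm4 is lowest with both compounds, Sntb1 and Fn1 are highest with both, and Rbpms is raised with either and highest with both.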

How the data were processed

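Organoid RNA was sequenced with paired-end reads from NEBNext Ultra libraries, a kit not described as keeping strand, so overlapping and antisense genes cannot be told apart. After trimming (Trimmomatic 0.39), alignment to mm10 (STAR 2.7.3a) and counting (featureCounts), the authors deposited TPM values for 29579 genes in 1 table. How counts became TPM is not given in the sources used here. TPM keeps no depth, so no counting error is given. The study's text gives 3 mice for the comparison of medium components, and which libraries share a mouse is not given in the sources used here. All per-sample columns could be tied to a sample (0 left unused).

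Values were taken as log2(TPM + 1) in R 4.3.3. Tests used limma 3.58.1 (eBayes with trend and robust) with the replicate number as a block, on genes averaging 1 TPM or more across the compared libraries. A call needed a Benjamini-Hochberg adjusted p under 0.05 and at least 2-fold. The block was used because deviations of same-numbered libraries from their group means correlated (mean 0.419, range 0.106 to 0.598 over 6 pairs), and 5 of 6 8C-V libraries resembled the 8C library of their own number most. Lists are described by counts and medians. Pipelines were tested on simulated data. Figures were drawn with matplotlib 3.10.9.

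Named genes are the 4 screening markers, the 15 largest falls and 10 largest rises (same sign in all 6 pairs, at least 5 TPM in the higher group, predicted genes skipped), up to 4 called members of each list or else its highest expressed member, and the 5 largest interactions of each sign. Some genes that this rule names are not reported here. Lyz1, Defa24, Lgr5, Atoh1, Hdac3, Hdac7, Igfbp2, Igfbp3, Igfbp1, the Armcx genes, the X-linked stretch, the families and the promoter counts were added after their values were seen. The comparison and the lists were chosen with earlier results of these data known. Alternatives were a pseudocount of 0.1, minimum means of 5 TPM or none, quantile or 75th percentile scaling, eBayes without trend and robust, no minimum fold, no block, all 10 organoid groups in the fit, replicates 1 to 3 or 4 to 6 alone, and leaving out each replicate.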

Additional observations from a re-analysis of the deposited data

Results flagged for a closer look

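Among 267 sets of a named gene and a condition, 11 held 1 library far from the rest of its condition, where chance marks about 1 set in 20. In 8C replicate 7, the library without a partner, 9 genes were the lowest of the condition by a wide gap. They were Chst7 (3.65 TPM, next library 8.62 TPM), Defa30 (5.06 and 71.4 TPM), Defa26 (1.35 and 10.8 TPM), Arxes2 (43.4 and 60.9 TPM), Ldhb (44.6 and 126.9 TPM), Dmrt1 (0.388 and 3.11 TPM), Rbbp7 (324.8 and 482.2 TPM), Hdac3 (115 and 146 TPM) and Pcna (210.4 and 403.0 TPM). The other libraries that stood apart were 8C replicate 2 for Sst, the highest at 320.2 TPM against 81.6 TPM, and 8C-V replicate 3 for Ldhb, the lowest at 33.3 TPM against 48.6 TPM. Because replicate 7 has no partner, it adds nothing to the blocked differences, and 701 genes were called without it against 700 with it.

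The interaction of leaving out VPA with EPZ6438 passed the threshold for 28 of the named genes, of which 8 had their sign set in advance. Ifitm1, Fn1, Dmrt1, Tmem47, Sntb1, Bmp4, Armcx2 and Basp1 had means under 1 TPM in each medium other than 8C and passed the minimum through the 8C libraries alone, so the sign of their interaction was set in advance and it is no test. The fitted interaction was negative for Ifitm1 (-3.38), Fn1 (-2.53), Dmrt1 (-2.49), Tmem47 (-2.45), Sntb1 (-2.41), Bmp4 (-2.27), Fscn1 (-2.21), Myh10 (-2.01), Arxes1 (-2.01), Armcx2 (-1.94), Chst7 (-1.81), Basp1 (-1.7), Igfbp2 (-1.68), Hspb1 (-1.59), Uchl1 (-1.51), Lamb1 (-1.41), Igfbp5 (-1.29), Vim (-1.27), Sgce (-1.12) and Tmem132c (-1.005). It was positive for Olfm4 (3.29), Aqp5 (2.59), Rbpms (2.55), Bex4 (2.0), Stk26 (1.89), Aoc1 (1.39), Armcx3 (1.28) and Arxes2 (1.07).

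The interactions of Fscn1, Olfm4, Rbpms, Stk26 and Vim were called in every setting other than replicates 1 to 3 or 4 to 6 alone. Those of Bmp4, Dmrt1, Ifitm1, Sntb1 and Tmem47 were called wherever they were fitted. Their sign was set in advance, so this says nothing about their stability, and they could not be fitted with a minimum mean of 5 TPM. The others lost their call in at least 1 setting besides replicates 1 to 3 or 4 to 6 alone. With a pseudocount of 0.1, 11 of the 28 were not called, with an adjusted p of 0.978 for Igfbp5, 0.958 for Hspb1, 0.886 for Arxes1, 0.706 for Sgce, 0.629 for Uchl1, 0.596 for Tmem132c, 0.323 for Chst7, 0.235 for Myh10, 0.117 for Aqp5, 0.0913 for Armcx2 and 0.0788 for Basp1.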

How the results depend on the processing

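The count of 700 genes changed by leaving VPA out, 534 lower and 166 higher, moved beyond 1.5-fold in 3 settings. It was 426 (320 lower, 106 higher) with a minimum mean of 5 TPM, 2277 (1598 and 679) without a minimum fold and 1170 (825 and 345) with replicates 4 to 6 alone. It was 577 with replicates 1 to 3 alone and 661 without the replicate block, of which 602 were also called with the block. Leaving out 1 replicate gave 601 to 810 genes, 462 to 633 lower and 139 to 180 higher. The 127 genes whose response differed with and without EPZ6438 became 73 without the replicate block, 47 with a minimum mean of 5 TPM, 218 without a minimum fold, 236 with replicates 1 to 3, 446 with replicates 4 to 6 and 81 to 141 when 1 replicate was left out, the lowest without replicate 1. The 565 genes that changed without EPZ6438 became 511 without the block.

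Of 109 named genes that were called, 62 kept their call in every setting and 0 changed direction. Losses with replicates 1 to 3 or 4 to 6 alone are given for only part of the genes. Besides the losses given with each gene, Reg3a (0.99) and Reg1 (1.05, adjusted p = 0.148) were not called with all organoid groups in the fit, nor Hoxb9 there (-0.96), without the block (adjusted p = 0.0607) or with quantile normalization (-0.90), nor Hoxb4 (-0.85) and Armcx3 (-0.95) with the latter, nor Cd36 without the block (adjusted p = 0.0685). Without a minimum mean, Sst, Lrg1, Mme, Slc16a3, Cyp4a10, Hoxb9 and Igfbp1 had adjusted p-values of 0.0535 to 0.0901. Ly6a and Ret, not called, were called lower in 7 of 17 settings each, and Hdac7 higher with replicates 4 to 6 alone (1.23). Genes that were not called changed sign in some settings. With replicates 4 to 6 alone Clu was at 1.87, Lgr5 at 0.061, Fos at -0.40 and Hnf4a at -0.085 (Areg stood at -2.70 there and was called, as Clu was, and Clu was also called at -2.57 with replicates 1 to 3 alone), and with replicates 1 to 3 alone Cdkn1a was at 0.092, Areg at 0.94 and Cd68 at 0.19. Without the replicate block Fos was at -0.16. When 1 replicate was left out, Clu stood between -0.87 and 0.23 (0.14 without replicate 1 and 0.23 without replicate 3), Fos between -0.033 and 0.37, Cd68 between -0.43 and 0.0099 and Eif2s3y between -0.27 and 0.026. The cause was not tested. TPM keeps no depth, so the counting error of weakly expressed genes is unknown, and the 133 genes that fell below a mean of 1 TPM are those it limits most.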

Other observations

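Most genes that fell without VPA had a higher mean in the 8C-V condition than in the standard ENR medium. Of the 534 genes called lower in the 8C-V condition, 480 had a lower mean in the 7 ENR libraries than in the 6 8C-V libraries, which is 89.9% of them against 59.9% of all genes tested, as a description with no test. Among the 401 that averaged 1 TPM or more in the 8C-V condition it was 364, or 90.8%, against 59.7% of all tested genes at that level. The Bex, Tceal and Arxes genes summed to 820.1 to 970.1 TPM in the 8C-V condition, 1184 to 2550 TPM in the 8C condition and 197 to 358 TPM in ENR medium. The MHC class II genes summed to 33.7 to 52.2 TPM without VPA, 88.2 to 320.2 TPM with VPA and 7.87 to 13.6 TPM in ENR medium, and the Hox genes summed to 29.8 to 42.6 TPM, 38.5 to 68.4 TPM and 4.62 to 11.8 TPM in the same order. The libraries did not overlap between the 3 media for the class II genes or for the Bex, Tceal and Arxes genes.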
